A study of Rattus norvegicus with 16 samples.

Results

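Nr3c1 (ENSRNOG00000014096) and Nr3c2 (ENSRNOG00000034007) encode the glucocorticoid receptor and the mineralocorticoid receptor. They were chosen by identifier, as 2 of the 32883 genes in the deposited count table, and both were among the 17174 genes tested. The RNA came from 3-month-old male Wistar rats (4 animals), whose hippocampal cell layers were cut from Nissl-stained sections by laser capture microdissection: the granular layer in the dentate gyrus (DG) and the pyramidal layer in CA1, CA2 and CA3. The rats carried no treatment or transgene that the labels or methods name. Every subfield has 4 deposited samples of stranded total RNA, numbered 1 to 4, and the labels do not say whether a number marks a rat. The borders of CA2 were set by eye from cell morphology and packing, and no molecular marker is named for them. The identifiers were paired with the symbols by the rule that chose them, and no genome position is given because the annotation at hand is of another build than the Rnor6 used for alignment.

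Both receptors are ligand-activated transcription factors of the same nuclear receptor subfamily. They wait in the cytoplasm in complexes with chaperones, bind corticosterone in the rat and then act in the nucleus on shared DNA response elements. The mineralocorticoid receptor binds corticosterone more tightly and is largely occupied at resting hormone levels, while the glucocorticoid receptor is occupied mainly at the daily peak and during stress. The hippocampus is known for holding both, and the balance between them is a standard theme of stress research. RNA levels are described here, and neither protein nor hormone was measured.

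The 16 columns of counts held between 3216512 and 11933279 counts on genes, a 3.71-fold range. CA2 replicates 2 and 4 differed by no more than sampling noise (chi-square per degree of freedom 1.0 over 12995 genes, p = 0.456), and DG replicates 2 and 4 by little more (1.04 over 13766 genes, p = 0.00176). For the 22 remaining pairs within a subfield this value ran from 2.80 to 43.5. CA3 replicate 3 stood apart, with 43.5, 41.5 and 17.2 against the other CA3 libraries, while no pair without it exceeded 15.4. Both repeated pairs were summed and counted as 1 sample each, so that 14 libraries remained, 4 each for CA1 and CA3 and 3 each for CA2 and DG. All 9 subfield markers with an identifier, of 19 listed symbols, were higher in every library of their own subfield than in every other library. They included Wfs1 for CA1, Amigo2 and Cacng5 for CA2, Fxyd7 for CA3, and Prox1 and C1ql2 for DG. These markers come from the list that the study chose on these samples, so their order is no independent check of the labels.

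Some libraries also held more of a neighbouring subfield's markers than others did. Wfs1, which encodes an endoplasmic reticulum protein and marks CA1, had 53.6 CPM (TMM-normalized counts, scaled to a common library total) in CA2 replicate 1, 86.8 CPM in CA2 replicate 3 and 134 CPM in the summed CA2 library, against 610.4 to 776 CPM in CA1. In CA3 it had 106 CPM in replicate 2 and 8.65 to 13.8 CPM in the others. Prox1, the transcription factor of granule cell identity, had 19.1 CPM in CA3 replicate 4 and 3.21 to 9.76 CPM in the other CA3 libraries, against 283 to 395 CPM in DG. Markers of glia, interneurons and vessels could not be read, since none of the 30 genes listed for them is paired with an identifier in the tables used here.

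Nr3c1 was abundant in CA1 and DG and low in CA2 and CA3. In CA1 its level was 152 CPM in replicate 1, 154 in replicate 2, 139 in replicate 3 and 137 in replicate 4, a mean of 145 ± 8.69 CPM (SD, n = 4). In DG it was 107 CPM in replicate 1, 126 in replicate 3 and 116 in the summed library, a mean of 116 ± 9.13 CPM (SD, n = 3). All CA1 libraries were thus above all DG libraries in TMM-normalized CPM, by a narrow margin of 137 against 126 CPM. Before TMM scaling the ranges overlapped. CA1 replicate 4 then had a lower share of counts (443 of 3216512) than DG replicate 3 (1048 of 7579986). The share of all genes separated between these subfields was not computed.

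The lower pair of subfields was not separated. CA3 had 50.9 CPM in replicate 1, 55.8 in replicate 2, 59.1 in replicate 3 and 53.0 in replicate 4, a mean of 54.7 ± 3.55 CPM (SD, n = 4). CA2 had 40.2 CPM in replicate 1, 57.3 in replicate 3 and 56.1 in the summed library, a mean of 51.2 ± 9.54 CPM (SD, n = 3). The CA2 library with the lowest Nr3c1 was also the one with the lowest Wfs1 (53.6 CPM), and the part of this in the CA2 level was not tested. In bulk tissue of this kind, fewer cells with the RNA and less RNA per cell cannot be told apart.

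Nr3c2 followed another order, with the highest level in CA2. It had 202 CPM in CA2 replicate 1, 247 in replicate 3 and 249 in the summed library, a mean of 233 ± 26.4 CPM (SD, n = 3). In CA1 it had 179.8 CPM in replicate 1, 211 in replicate 2, 207 in replicate 3 and 198 in replicate 4, a mean of 199 ± 13.7 CPM (SD, n = 4). The ranges of CA2 and CA1 overlapped through CA2 replicate 1.

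The granular layer and CA3 had less Nr3c2. DG had 143 CPM in replicate 1, 167 in replicate 3 and 165 in the summed library, a mean of 158 ± 13.6 CPM (SD, n = 3). CA3 had 121 CPM in replicate 1, 159 in replicate 2, 120.4 in replicate 3 and 156 in replicate 4, a mean of 139 ± 21.1 CPM (SD, n = 4). The CA3 libraries fell into a lower and a higher pair, and the higher pair overlapped DG. Every library of CA1 and CA2 was above every library of CA3 and DG, and the share of all genes so separated was not computed.

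**Figure D1:**
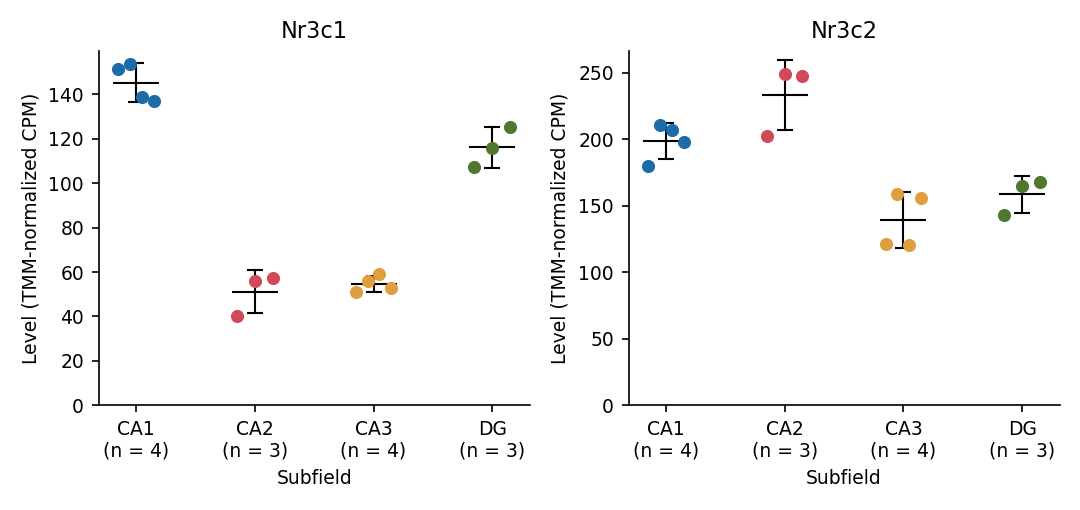
Level of Nr3c1 (left) and Nr3c2 (right) in TMM-normalized CPM for each library (points) of the 4 subfields, with the mean (line) and SD (bars), where the repeated columns of CA2 and DG are summed. Nr3c1 lies at 137 to 154 CPM in CA1, above DG, and at 40.2 to 59.1 CPM in CA2 and CA3, while Nr3c2 is highest in CA2 at 202 to 249 CPM.

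The columns summed as repeats gave nearly the same levels when kept apart. Nr3c1 had 57.0 CPM in CA2 replicate 2 and 54.4 CPM in CA2 replicate 4, and 116 CPM in DG replicate 2 and 110.3 CPM in DG replicate 4. Nr3c2 had 250.5 CPM and 243 CPM in the same CA2 columns, and 165 CPM and 159 CPM in the DG columns. The libraries held between 257 and 1783 counts of Nr3c1 and between 639 and 2542 counts of Nr3c2. Counting error alone therefore gave a coefficient of variation of 2.37% to 6.24% for Nr3c1 and 1.98% to 3.96% for Nr3c2. The coefficient of variation between libraries was above the highest of these for Nr3c2 in every subfield, from 6.91% in CA1 to 15.2% in CA3. For Nr3c1 it was above it in CA2 (18.6%), DG (7.86%) and CA3 (6.50%), and it was 5.98% in CA1. The highest counting error of Nr3c1 belongs to CA2 replicate 1 (257 counts). CA1 libraries held at least 443 counts and so had a smaller counting error than 6.24%.

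The 6 comparisons were tested with edgeR's quasi-likelihood test over all 17174 genes, with Benjamini-Hochberg adjustment, and a gene with an adjusted p under 0.05 is called a DEG. Among the pyramidal layers, DEGs made up 14.3% of genes in CA1vsCA2, 24.8% in CA1vsCA3 and 7.65% in CA2vsCA3. Against the granular layer they made up 29.4% in CA1vsDG, 35.4% for CA2vsDG and 40.2% for CA3vsDG. Nr3c1 was a DEG in 5 of the 6, all but CA2vsCA3, and Nr3c2 in 4, all but CA1vsCA2 and CA3vsDG. The comparisons share libraries, so these calls are not independent of each other, and the fit takes the libraries as independent although the subfields came from the same 4 rats.

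For Nr3c1 the CA1 level stood far above both other pyramidal layers. The log2 fold change was 1.5 in CA1vsCA2 (standard error 0.12, edgeR adjusted p = 3.54e-08) and 1.41 in CA1vsCA3 (standard error 0.11, edgeR adjusted p = 4.63e-09), which correspond to 2.83-fold and 2.66-fold higher levels. In CA1vsCA2 it had the 33rd smallest p of all genes tested, and 7.28% of genes had a larger absolute log2 fold change. In CA1vsCA3 it held place 129, with 10.4% of genes having a larger change. The median absolute log2 fold change over all genes was 0.29 and 0.33 in these comparisons.

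DG also exceeded CA2 and CA3 in Nr3c1. The log2 fold change was -1.18 in CA2vsDG (standard error 0.13, edgeR adjusted p = 2.37e-07), a 2.26-fold higher level in DG, and -1.09 in CA3vsDG (standard error 0.12, edgeR adjusted p = 1.85e-07), a 2.12-fold higher level in DG. Larger absolute changes were found in 19.4% and 21.8% of genes, and the median absolute log2 fold change over all genes was 0.48 and 0.49. In CA2vsCA3 the log2 fold change of Nr3c1 was -0.09 (edgeR adjusted p = 0.787), with a 95% interval from -0.34 to 0.16. This interval leaves room for a difference of up to 0.34 on the log2 scale, and without CA2 replicate 1 the value changed sign, to 0.03.

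The step from DG to CA1 was small for Nr3c1, with a log2 fold change of 0.32 in CA1vsDG (standard error 0.12, edgeR adjusted p = 0.0411), or 1.25-fold. A larger absolute change was found in 56.6% of genes. The call was lost in 8 of 14 fits that left out 1 library. Without CA1 replicate 1, 2 or 3 the edgeR adjusted p was 0.116, 0.0935 and 0.0686, and without DG replicate 1, DG replicate 3 or the summed DG library it was 0.198, 0.0511 and 0.145. Libraries outside the comparison decided it as well, with an edgeR adjusted p of 0.0621 without CA2 replicate 3 and 0.0588 without CA3 replicate 1.

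Nr3c2 was more abundant in CA2 than in CA3 and DG. The log2 fold change was 0.75 in CA2vsCA3 (standard error 0.12, edgeR adjusted p = 0.000196), or 1.68-fold, and the gene had the 283rd smallest p in the comparison with the fewest DEGs. In CA2vsDG it was 0.56 (standard error 0.13, edgeR adjusted p = 0.00162), or 1.47-fold, and 44.4% of genes had a larger absolute change in that comparison. CA1 was higher than CA3 too, by 0.52 on the log2 scale (standard error 0.11, edgeR adjusted p = 0.00138), or 1.43-fold.

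In the remaining comparisons of Nr3c2 the evidence was weaker. CA1vsDG gave 0.33 (standard error 0.12, edgeR adjusted p = 0.0455), and 56.3% of genes had a larger absolute change. This call too was lost in 8 of 14 fits that left out 1 library. The edgeR adjusted p was 0.103 without CA1 replicate 2, 0.133 without CA1 replicate 3 and 0.0732 without CA1 replicate 4, and it was 0.241 without DG replicate 1, 0.0792 without DG replicate 3 and 0.112 without the summed DG library. Without CA2 replicate 3 it was 0.0807, and without CA3 replicate 1 it was 0.0590.

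Neither the step from CA1 to CA2 nor that from DG to CA3 passed the test for Nr3c2. CA1vsCA2 had a log2 fold change of -0.23 (95% interval from -0.48 to 0.02, edgeR adjusted p = 0.227) and CA3vsDG one of -0.19 (95% interval from -0.44 to 0.06, edgeR adjusted p = 0.219). With the replicate number as a block for the rat, the spread was smaller and the outcome turned on how the repeated columns were placed. CA1vsCA2 then had an edgeR adjusted p of 0.0216 with the summed pairs as number 4 and 0.0512 with them as number 2, and CA3vsDG one of 0.0233 and 0.0527. With all 16 columns kept and blocked the values were 0.0209 and 0.0381. Without the block, in the order CA2, CA1, DG, CA3 the middle step passed narrowly, and the first and last steps did not exceed the spread. With the block, the middle step (CA1vsDG) had an edgeR adjusted p of 0.0111 and 0.0109 with the summed pairs as number 4 and 2. With all 16 columns kept and blocked it was 0.000918.

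**Figure D2:**
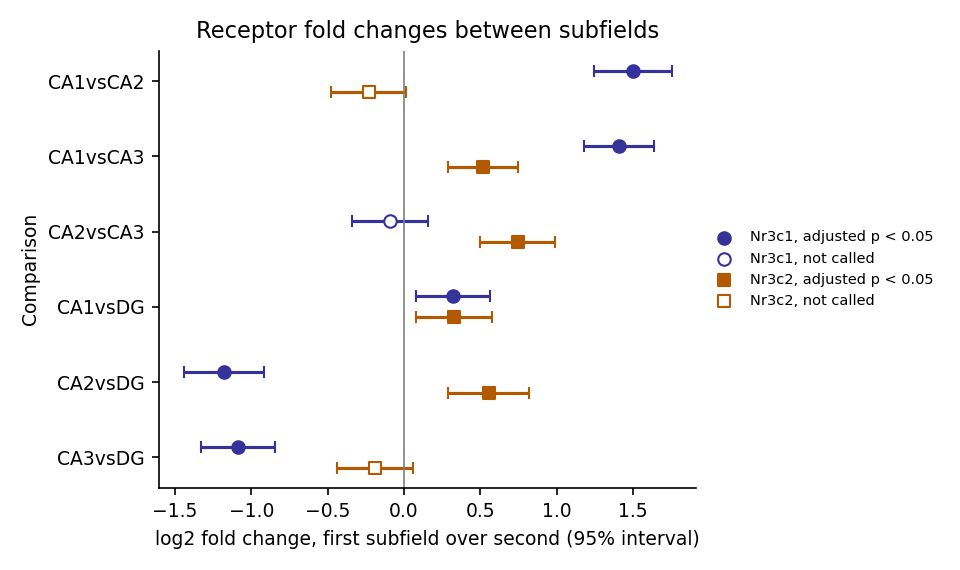
Log2 fold changes of Nr3c1 (circles) and Nr3c2 (squares) in the 6 comparisons, first subfield over second, with 95% intervals from the edgeR fit to 14 libraries; filled symbols have an adjusted p under 0.05. The receptors move apart in CA1vsCA2 (1.5 against -0.23) and CA2vsDG (-1.18 against 0.56), and have near-equal values in CA1vsDG (0.32 and 0.33).

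The balance of the receptors was read as the ratio of Nr3c1 counts to Nr3c2 counts within a library. This ratio needs no normalization between libraries. Transcript length cancels when subfields are compared only if they use the same transcript forms, which was not tested. The ratio is not a ratio of molecules, because the counts are not divided by length. In CA1 it was 0.843 in replicate 1, 0.731 in replicate 2, 0.670 in replicate 3 and 0.693 in replicate 4, a mean of 0.734 ± 0.0769 (SD, n = 4). In DG it was 0.751 in replicate 1, 0.750 in replicate 3 and 0.701 in the summed library, a mean of 0.734 ± 0.0283 (SD, n = 3). The DG values lay inside the range of CA1.

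In CA2 the balance was shifted furthest towards Nr3c2. The ratio was 0.198 in replicate 1, 0.231 in replicate 3 and 0.225 in the summed library, a mean of 0.218 ± 0.0175 (SD, n = 3). CA3 lay between, with 0.420 in replicate 1, 0.351 in replicate 2, 0.491 in replicate 3 and 0.341 in replicate 4, a mean of 0.401 ± 0.0696 (SD, n = 4). CA2, CA3 and the group of CA1 and DG did not overlap. CA3 replicate 3, the library that stood apart, had the highest ratio and the lowest Nr3c2 level of CA3 (120.4 CPM). Its Nr3c1 level was the highest of CA3 after TMM scaling (59.1 CPM). Before scaling, its share of counts was the lowest of CA3 (559 of 11712968). Without this library the difference in mean log2 ratio was 0.99 in CA1vsCA3, -0.76 in CA2vsCA3 and -0.99 in CA3vsDG, against 0.88, -0.86 and -0.89 with it. As a share of the counts of both receptors, Nr3c1 ranged over the libraries from 16.6% to 18.8% for CA2 and from 25.4% to 32.9% for CA3, against 40.1% to 45.8% for CA1 and 41.2% to 42.9% for DG.

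**Figure D3:**
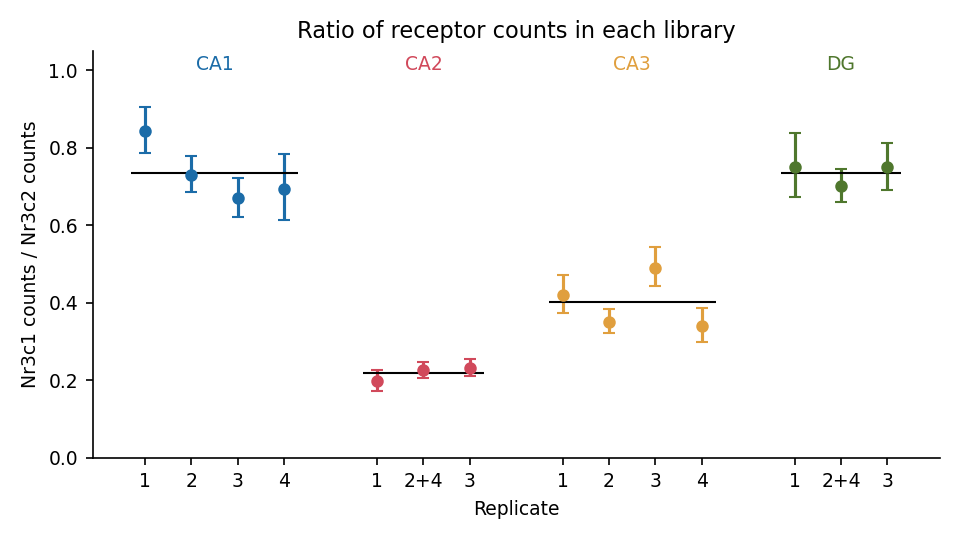
Ratio of Nr3c1 counts to Nr3c2 counts in each of the 14 libraries (points) with exact 95% binomial intervals for counting error (bars) and the mean of each subfield (lines). CA2 lies at 0.198 to 0.231, CA3 at 0.341 to 0.491, and CA1 and DG share the range above 0.670.

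Counting error could be set against these ratios. The exact Clopper-Pearson 95% intervals of the CA2 libraries overlapped each other, as did those of DG. In CA3 the interval of replicate 3 (0.443 to 0.544) lay apart from that of replicate 4 (0.300 to 0.387), and in CA1 the interval of replicate 1 (0.786 to 0.905) lay apart from that of replicate 3 (0.622 to 0.721). Libraries of CA3 and CA1 thus differed by more than counting error, which is all that the intervals cover, since PCR copies are not independent molecules.

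Over the 4 subfields the ratio differed by an exact permutation test of the 14 libraries (p = 3.23e-05, over 4204200 assignments), and 96.1% of the sum of squares of the log2 ratio lay between subfields. This test exchanges libraries freely and takes no account of the shared rats. Paired by replicate number over the 16 columns, the difference had 1 sign in all 4 numbers for 5 comparisons, each with an exact sign-flip p of 0.125, the smallest that 4 pairs can give (adjusted p = 0.15). In CA1vsDG, 2 of 4 numbers were above 0 (exact p = 0.75). This pairing counts the repeated columns as separate. For single comparisons the design allows little, since a two-sided exact permutation test cannot go below 0.0286 with 4 against 4 libraries, 0.0571 with 4 against 3 and 0.1 with 3 against 3. CA1vsCA2, CA1vsCA3, CA2vsCA3, CA2vsDG and CA3vsDG each reached the smallest p of their size, and after adjustment over the 6 comparisons none passed 0.05. The adjusted exact p was 0.120 for CA2vsDG and 0.0857 for the other 4.

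The sizes of the differences in ratio were as follows. CA1 was 3.36-fold higher than CA2 (95% interval from 2.76 to 4.09, from the pooled spread within subfields) and 1.85-fold higher than CA3 (from 1.54 to 2.21). The intervals of this paragraph take the libraries as independent and the spread as equal in all subfields. The SD of the log2 ratio ran from 0.056 in DG to 0.245 in CA3. DG was 3.37-fold higher than CA2 and 1.85-fold higher than CA3, while CA3 was 1.82-fold higher than CA2. Between CA1 and DG the mean log2 ratios were -0.45 and -0.45, with a 95% interval of the fold from 0.819 to 1.21 (exact permutation test, p = 0.914). Set as granular against pyramidal layers, the mean log2 ratio was -0.45 in DG and -1.25 over the 11 pyramidal libraries (exact permutation test, p = 0.0879). The mean log2 ratio was -0.45 in CA1, -2.20 in CA2 and -1.33 in CA3. With each library left out, the exact permutation p of DG against the pyramidal layers ran from 0.0140 to 0.179. It was under 0.05 only without CA1 replicate 1, and highest without DG replicate 1 or 3.

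Set side by side, the fold changes show which receptor carried each difference in ratio. In CA1vsCA2 the log2 fold change was 1.5 for Nr3c1 and -0.23 for Nr3c2, a difference of 1.73 that lay mostly in Nr3c1. In CA2vsCA3 it was -0.09 for Nr3c1 and 0.75 for Nr3c2, a difference of -0.84 that lay mostly in Nr3c2. In CA1vsCA3 both receptors were higher in CA1, by 1.41 and 0.52, and in CA1vsDG both were higher in CA1 by 0.32 and 0.33, so that the ratio stayed level. In CA2vsDG they had opposite signs, with -1.18 and 0.56.

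**Figure D4:**
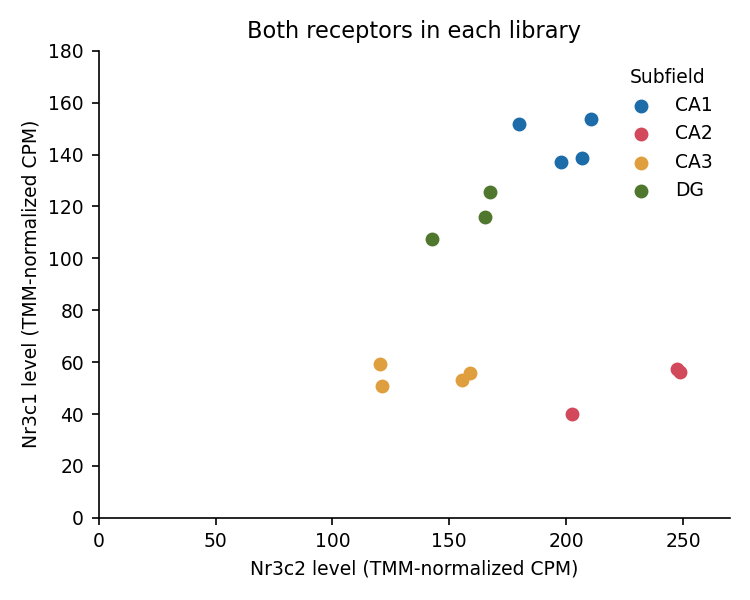
Nr3c1 level against Nr3c2 level, both in TMM-normalized CPM, for the 14 libraries (points, coloured by subfield). The subfields occupy separate areas: CA1 and DG lie at high Nr3c1, CA3 is low in both, and CA2 has 40.2 to 57.3 CPM of Nr3c1 with 202 to 249 CPM of Nr3c2.

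The pattern of each receptor over the 14 libraries was compared with that of 8806 other genes with a mean of at least 10 CPM, by Pearson's r of log2 CPM, as a description. For Nr3c1 the most similar genes were listed as ENSRNOG00000032150 (r = 0.980) and ENSRNOG00000060773 (r = 0.966). The mean of the first was 204 ± 17.8 CPM for CA1 and 189 ± 1.25 CPM for DG. It was 66.2 ± 17.2 CPM for CA2 and 69.1 ± 2.74 CPM for CA3 (SD over 4 libraries in CA1 and CA3 and over 3 in CA2 and DG, here and below). In all, 56 genes had an r above 0.9 with Nr3c1.

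Fewer genes had an r above 0.9 with Nr3c2, 9 in all, and the usual count for a gene was not computed. The most similar were ENSRNOG00000033522 (r = 0.965) and ENSRNOG00000012148 (r = 0.941). The first had its highest mean in CA2, at 79.6 ± 5.83 CPM, followed by CA1 at 66.8 ± 6.4 CPM, DG at 54.8 ± 6.62 CPM and CA3 at 43.1 ± 6.55 CPM. The next 3 genes of each receptor have no symbol in the tables used here either. With each other the receptors had an r of 0.145. All these values share the same libraries and the same 4 subfields.

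Of 64 further genes listed for corticosteroid metabolism, chaperones, coregulators, target genes, the CRH system and other steroid receptors, only Cebpd is paired with an identifier, and the others were not analysed here. Cebpd (ENSRNOG00000050869) encodes a transcription factor that glucocorticoids are known to induce in several tissues, and it stands on the list of DG markers that the study chose on these samples. Its mean was 21.0 ± 2.50 CPM in DG. The pyramidal layers were lower, CA2 at 3.26 ± 0.618 CPM, CA1 at 2.49 ± 0.305 CPM and CA3 at 2.11 ± 1.14 CPM. It has an identifier here only through that list, so its higher level in DG was fixed by how it was chosen, and it carries no information on the receptors' target genes.

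**Figure D5:**
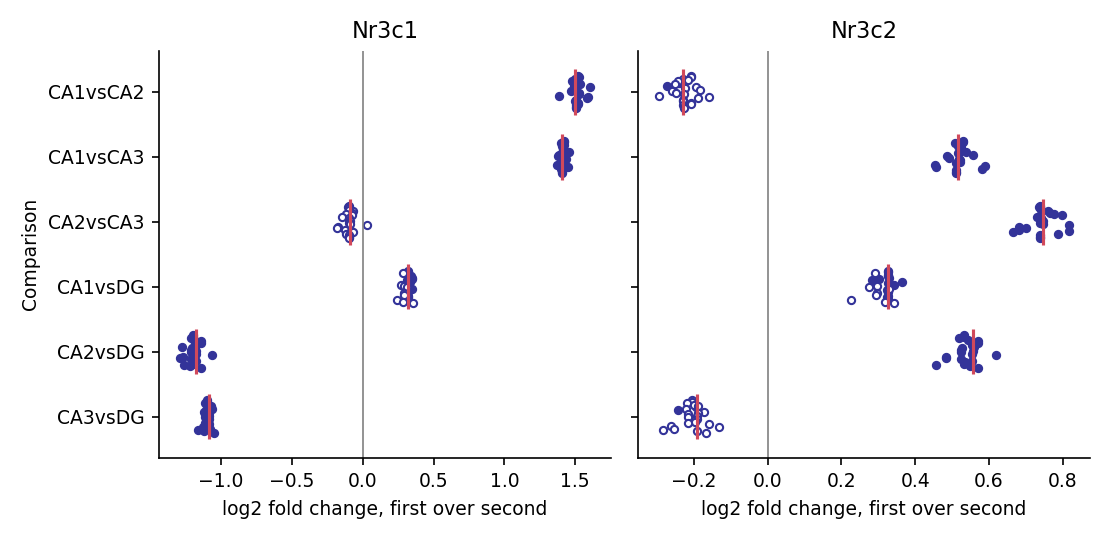
Log2 fold changes of Nr3c1 (left) and Nr3c2 (right), first subfield over second, in the 24 alternative settings of each comparison (points, filled where the adjusted p is under 0.05) and in the reported fit (red line). Calls change with the setting in CA1vsDG for both receptors and in CA1vsCA2 and CA3vsDG for Nr3c2, and the sign changes only in CA2vsCA3 for Nr3c1.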

How the data were processed

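The authors captured the layers by laser, extracted RNA with TRIzol, prepared stranded total RNA libraries and aligned paired reads with STAR to Rnor6. The deposited counts are the raw number of reads on each Ensembl gene, without normalization. The counting program and strand setting are not given in the sources used here, so reads of overlapping or antisense genes cannot be told apart. The deposited tables of the authors' own comparisons (DESeq2 means, fold changes and p-values) were not used.

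Columns of a subfield whose counts gave a chi-square per degree of freedom under 1.5 were summed. Genes with more than 10 counts in sum were fitted with edgeR 4.0.16 in R 4.3.3, using TMM factors and quasi-likelihood tests in a model of the 4 subfields with no term for the rat. The standard error is the log2 fold change divided by the square root of F. Log2 CPM used a prior count of 2. Ratios were tested by exact permutation of libraries with scipy 1.17.1, and as pairs by exact sign flips over the replicate numbers. DESeq2 1.42.0 and the other alternatives are given in the closing section. The fits were also run on simulated counts of independent libraries with genes changed in CA1 alone, which does not cover the shared rats.

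The replicate numbers were checked for pairing by the correlation of deviations from subfield means. Columns of 1 number in different subfields had a median r of 0.275, with 19 of 24 above 0.1. Columns of different numbers had a median r of -0.0996, with 19 of 72 above 0.1. Without the repeated columns the counts above 0.1 were 12 of 14 and 4 of 38. The highest values, 0.620 to 0.695, were those of number 1, and the lowest value within 1 number was -0.127. The labels do not say that a number is a rat.

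The receptors, gene lists and repeated columns were chosen with earlier results of these data known. The genes named follow a rule: both receptors in every library, the listed pathway genes, and the genes most alike by r. Symbols of other genes came from 288 identifiers in the study's marker list. Of the subfield markers with an identifier, 1 is not reported here.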

Additional observations from a re-analysis of the deposited data

How the results depend on the processing

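For Nr3c1, 135 of 144 fits in 24 alternative settings kept their side of the threshold, and for Nr3c2 131 of 144. The sign changed only for Nr3c1 in CA2vsCA3 without CA2 replicate 1, to 0.03, where neither fit gave a call. Without a filter on low counts the CA1vsDG calls were lost, at log2 fold changes of 0.29 for Nr3c1 (edgeR adjusted p = 0.0824) and 0.29 for Nr3c2 (0.0695), and the cause was not tested. With each library left out, CA1vsDG ranged from 0.24 to 0.36 for Nr3c1 and from 0.23 to 0.34 for Nr3c2. Under a replicate block (the labels' number as a term), Nr3c2 passed the threshold in CA1vsCA2 at -0.24 (16 columns) and -0.27 (summed pairs as number 4) and in CA3vsDG at -0.19 and -0.24, and the block changed no other receptor call. For Nr3c1 in CA1vsDG the blocked edgeR adjusted p was 0.00678 and 0.0130 (summed pairs as number 2 and 4). With 16 columns, DEGs in CA1vsCA2 numbered 3850 with the block and 2858 without it, against 2458 in the reported fit. In CA2vsCA3 they numbered 2615 with the block and 1737 without it (16 columns). With the summed pairs as number 2 and 4 they numbered 2028 and 2219 there, against 1313 without the block. DEGs rose with the block in the other comparisons too, as in CA3vsDG from 7508 to 8332 (16 columns). Keeping 16 columns separate gave ratio differences past the threshold (adjusted exact p = 0.0343) of 1.73 in CA1vsCA2, 0.88 in CA1vsCA3, -0.85 in CA2vsCA3, -1.72 in CA2vsDG and -0.87 in CA3vsDG, and of -0.86 for pyramidal against DG (p = 0.0429); these count repeated columns as samples. With each library left out the pyramidal against DG difference ranged from -0.90 to -0.69. DESeq2, median-of-ratios factors, filterByExpr, fits to 2 subfields and thinning changed no receptor call.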

Other observations

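Within CA3 the libraries differed more in Nr3c2 than in Nr3c1. Replicates 1 and 3 had 121 and 120.4 CPM of Nr3c2, and replicates 2 and 4 had 159 and 156 CPM. In replicates 2 and 4 the summed level of the DG markers Prox1, Rgs10, Dsp and C1ql2 was 43.4 and 54.6 CPM, against 29.0 and 35.9 CPM in replicates 1 and 3 and between 791 and 836 CPM in DG. Replicate 2 also had the highest Wfs1 of the CA3 libraries, at 106 CPM. The mean level of Nr3c2 in DG was 158 CPM. The part of other subfields' tissue in this spread was not tested.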
